A study of Mus musculus with 12 samples.

Results

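The unfolded protein response and the integrated stress response were followed through 30 listed genes in primary mouse hepatocytes. They comprised 14 chaperones and folding enzymes of the endoplasmic reticulum (ER), 3 genes of ER-associated degradation, 4 stress transcription factors and 9 targets of the transcription factor ATF4. Each gene was read from its brightest tested probe, named through its RefSeq accession. Of the 30 genes 29 were measured, among 19017 genes or accessions tested on the array. Pdia3 had no matched probe and is without a value here. All 29 measured genes were well above background on all 12 arrays, so the filter on dim probes removed none of them.

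Proteins that fail to fold in the ER lumen activate the membrane sensors IRE1, PERK and ATF6. IRE1 splices the mRNA of XBP1, and ATF6 is cut to release a transcription factor; both routes raise ER chaperones and the machinery that exports misfolded proteins for degradation. PERK and related kinases phosphorylate the translation factor eIF2alpha, which slows general translation while ATF4 is translated and turns on CHOP, amino acid synthesis and the phosphatase subunit GADD34, the arm known as the integrated stress response. Hepatocytes carry a heavy load of secretory protein, and both responses are well described in liver.

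The arrays fell into 4 groups of 3: PGC-1alpha-/- hepatocytes given shTLS, PGC-1alpha-/- hepatocytes given control shRNA, PGC-1alpha+/+ hepatocytes given shTLS and PGC-1alpha+/+ hepatocytes given control shRNA. All mice were C57BL/6, and the medium held dexamethasone and insulin, each at 100 nM. Every culture, controls included, was infected with an adenovirus at a multiplicity of infection of 5 and harvested 24 h after infection, and uninfected cells were not analysed here. PGC-1alpha is a transcriptional coactivator of hepatic metabolism. Each of 6 mice, 3 of each genotype, gave 1 culture with shTLS and 1 with control shRNA, and these 2 cultures are called a pair. The replicate number also marks an assay that both genotypes shared, and it coincides with the slide.

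The probe of Ppargc1a, the gene of PGC-1alpha, read 8.81 ± 0.12 in -/- shTLS cells and 9.32 ± 1.44 in +/+ shTLS cells, and 9.38 ± 0.34 in -/- control cells and 9.21 ± 1.09 in +/+ control cells (SD, n = 3 each). Without the second +/+ mouse the difference between genotypes was 0.32 with shTLS and 0.75 with control shRNA; the part of the gene that was deleted is not given in the sources used here, so it checks nothing about the deletion. The number of probes above background ran from 22706 to 26679 per array. Albumin, 1 of 8 measured hepatocyte markers, stood between 16.86 and 17.75 log2 units on all arrays. Other markers varied more, with Fgb from 13.25 to 17.78. With shTLS 6 of the 8 had a lower mean in each genotype. Their median difference was -0.70 in -/- cells and -0.38 in +/+ cells, against -0.02 and -0.01 for all genes, and 0 were called with or without a block. Both arrays of the second +/+ mouse stood apart in several stress genes, as given with each gene, and its control array also had the fewest probes above background (22706) and the most spots marked as outlying or non-uniform (206, against 74 to 116 elsewhere). The deposited values matched a quantile normalization of the array files, which sets every array to 1 distribution. Scaled instead to the 8 spike-in probes, the median difference of all genes between shTLS and control arrays was -0.78 log2 units in -/- cells and -0.84 in +/+ cells, so each difference given is relative to the bulk of the genes on the array.

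Across the 29 measured genes, shTLS cultures had a higher mean than control cultures for 23 (5 under the spike-in scaling), with the greatest differences at Atf3, Ppp1r15a, Dnajb9 and Ddit3, but 0 passed limma's test of the 4 group means at an adjusted p under 0.05. In -/- cells 0 of 29 were called, against 0.989% of all genes. In +/+ cells 0 of 29 were called, against 1.20% of all genes. Averaged over both genotypes 0 of 29 were called, against 8.26% of all genes. At an unadjusted p under 0.05 there were 1, 4 and 10 of 29 in these comparisons, against 12.2%, 16.5% and 28.1% of all genes.

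The replicate numbers pair the cultures, so the fit with the number as a block was set beside the first. Averaged over genotypes it called 8 of 29 genes, or 27.6%, against 29.0% of all genes, a share near the background. By direction it called 7 higher, or 24.1% of the 29 against 15.3% of all genes, and 1 lower, or 3.45% against 13.7%. The 7 were Hspa5, Calr, Dnajb9, Dnajc3, Herpud1, Atf3 and Ppp1r15a, and the gene called lower was Phgdh. Within -/- cells this fit called 0 of 29 against 6.22% of all genes, and within +/+ cells 4 of 29 against 12.5% (Hspa5, Calr, Dnajb9 and Dnajc3). With each mouse as the block, 11 of 29 were called on average against 32.8% of all genes, with Ddit3 and Sesn2 added among those higher and Canx among those lower; 1 was called in -/- cells (Ppp1r15a) against 8.41%, and 4 in +/+ cells against 15.6%. Without both arrays of the second +/+ mouse, the fit with the number as a block called 9 of 29 on average against 32.1% of all genes.

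Counted by pairs, 13 of 29 genes were higher with shTLS in 6 of 6 pairs, or 44.8%, against 19.4% of all genes. Another 2, Canx and Phgdh, were lower in 6 of 6 pairs, or 6.90%, against 18.9% of all genes. The mean difference was above 0 for 23 of 29 genes, or 79.3%, against 49.1% of all genes. This leaning to higher values depended on the scaling: under spike-in scaling the mean difference was above 0 for 5 of 29, and 22 of 29 still lay above the median of all genes. The 5 were Hspa5 (0.13), Dnajb9 (0.39), Ddit3 (0.28), Atf3 (0.65) and Ppp1r15a (0.58), whereas Calr, Dnajc3 and Herpud1 had -0.10, -0.03 and -0.09. Limma then called 9 of 29 on average, all lower (Canx, Sel1l, Edem1, Xbp1, Atf4, Chac1, Sesn2, Phgdh and Slc7a11), or 31.0%, against 54.6% of all genes called and 51.4% called lower.

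**Figure D1:**
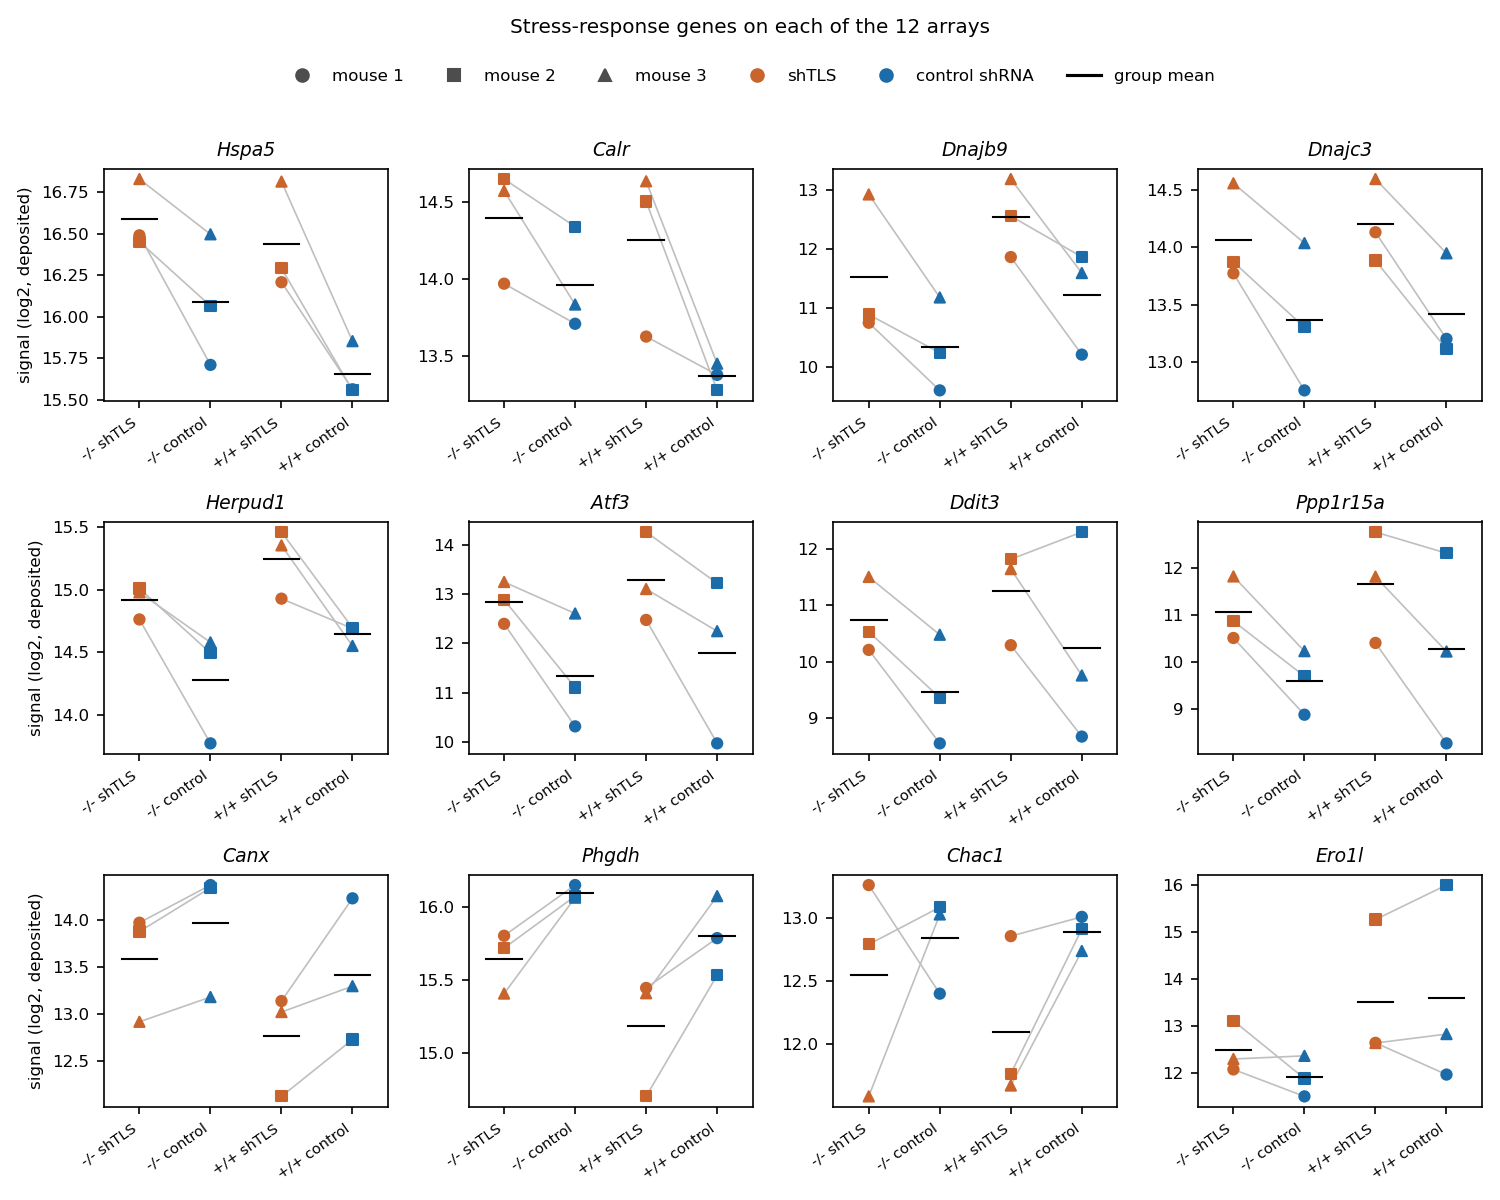
Deposited log2 signal (vertical axis) of 12 of the genes on each array by group; symbols mark the mouse, grey lines join both cultures of a mouse and black bars are group means. In these quantile-normalized values Atf3, Dnajb9, Dnajc3 and Hspa5 are higher with shTLS in 6 of 6 pairs, Canx and Phgdh lower in 6 of 6, and Ero1l is set apart by both cultures of the second +/+ mouse.

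Among the ER chaperones and folding enzymes, 12 of 13 measured genes had a mean difference above 0 between shTLS and control cells, and the median of the 13 was 0.46 log2 units, against -0.02 over all genes; under spike-in scaling 2 of 13 were above 0 and the medians were -0.34 and -0.81. The fit with the number as a block called 4 of 13, all higher (Hspa5, Calr, Dnajb9 and Dnajc3), where it called 29.0% of all genes and 15.3% higher. Hspa5 encodes BiP, the HSP70 chaperone of the ER lumen that also holds the sensors inactive. It read 16.49, 16.45 and 16.83 log2 units in -/- shTLS cells, against 15.71, 16.07 and 16.50 in -/- control cells. It read 16.21, 16.29 and 16.81 in +/+ shTLS cells, against 15.56, 15.56 and 15.85 in +/+ control cells. The +/+ groups did not overlap, and in -/- cells only the third control culture reached the shTLS range. The difference averaged over genotypes was 0.64 ± 0.20 log2 units (SE), a 1.56-fold ratio, with limma's adjusted p = 0.0678, and 0.00713 with the number as a block.

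Calr, the lectin chaperone calreticulin, read 13.97, 14.65 and 14.57 log2 units in -/- shTLS cells, against 13.71, 14.34 and 13.84 in -/- control cells. In +/+ cells it read 13.63, 14.50 and 14.63 with shTLS, against 13.38, 13.28 and 13.45 with control shRNA. Every +/+ shTLS culture lay above every +/+ control culture, while the -/- groups overlapped. Its averaged difference was 0.66 ± 0.23 (SE), with limma's adjusted p = 0.0939, and 0.0221 with the number as a block. Within +/+ cells the difference was 0.89 ± 0.32 (SE) and the call by limma with the number as a block (adjusted p = 0.0476) was lost with the mouse as a block (0.0550) and without the second +/+ mouse (0.136).

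Dnajb9 (ERdj4) and Dnajc3 (p58IPK) are J-domain co-chaperones of BiP. Dnajb9 read 10.75, 10.89 and 12.92 log2 units in -/- shTLS cells, against 9.60, 10.24 and 11.18 in -/- control cells. It read 11.86, 12.55 and 13.18 in +/+ shTLS cells, against 10.21, 11.86 and 11.59 in +/+ control cells. The third -/- mouse was the highest of its genotype with either vector, and the groups overlapped in both genotypes although each pair was higher with shTLS. The averaged difference of 1.25 ± 0.47 (SE), a 2.37-fold ratio, was the largest of the chaperones, with limma's adjusted p = 0.119, and 0.00895 with the number as a block. Its 2 other tested probes gave averaged differences of 1.27 and 1.23.

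Dnajc3 read 13.77, 13.87 and 14.56 in -/- shTLS cells, against 12.76, 13.31 and 14.04 in -/- control cells. In +/+ cells it read 14.13, 13.89 and 14.60 with shTLS, against 13.20, 13.11 and 13.95 with control shRNA. The third mouse of each genotype was the highest with both vectors, and the pairs differed by 0.52 to 1.02. The average was 0.74 ± 0.27 (SE), with limma's adjusted p = 0.112, and 0.00706 with the number as a block. Without the second +/+ mouse, Hspa5, Calr, Dnajb9 and Dnajc3 were still called on average in that fit (limma, adjusted p = 0.0153, 0.0497, 0.00471 and 0.0154), but within +/+ cells only Dnajb9 was (0.0284).

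The promoter windows of these 4 chaperones, 250 bases before to 50 after the annotated start, are shown because they carry the letters of the known stress elements of this gene class (RefSeq, GRCm38.p6, 5′ to 3′ along the gene). Capitals mark matches, on either strand, to the ER stress element (ERSE: CCAAT, 9 bases, CCACG), to CCACG alone, to TGATGNAA, and to the cyclic AMP response element core TGACG; each ERSE also holds a CCACG.
Hspa5 (chr2:34771840-34772139, + strand): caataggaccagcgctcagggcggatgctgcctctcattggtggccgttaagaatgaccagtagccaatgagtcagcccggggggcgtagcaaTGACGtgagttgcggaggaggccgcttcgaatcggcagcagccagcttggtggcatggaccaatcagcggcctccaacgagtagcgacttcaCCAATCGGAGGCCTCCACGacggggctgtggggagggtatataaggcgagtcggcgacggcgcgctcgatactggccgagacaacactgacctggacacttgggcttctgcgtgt
Calr (chr8:84846882-84847181, - strand): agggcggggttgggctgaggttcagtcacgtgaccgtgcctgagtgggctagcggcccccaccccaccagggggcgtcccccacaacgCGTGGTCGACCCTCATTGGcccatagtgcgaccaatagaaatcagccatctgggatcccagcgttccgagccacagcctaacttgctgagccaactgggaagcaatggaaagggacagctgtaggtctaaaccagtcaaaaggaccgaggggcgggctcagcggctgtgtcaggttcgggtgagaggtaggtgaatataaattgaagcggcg
Dnajb9 (chr12:44210019-44210318, - strand): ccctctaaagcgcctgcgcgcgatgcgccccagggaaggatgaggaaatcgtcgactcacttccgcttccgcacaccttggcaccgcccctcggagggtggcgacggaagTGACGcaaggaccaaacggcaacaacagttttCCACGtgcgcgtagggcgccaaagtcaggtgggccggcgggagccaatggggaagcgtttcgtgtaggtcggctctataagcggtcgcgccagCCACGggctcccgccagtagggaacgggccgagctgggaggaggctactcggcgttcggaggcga
Dnajc3 (chr14:118937682-118937981, + strand): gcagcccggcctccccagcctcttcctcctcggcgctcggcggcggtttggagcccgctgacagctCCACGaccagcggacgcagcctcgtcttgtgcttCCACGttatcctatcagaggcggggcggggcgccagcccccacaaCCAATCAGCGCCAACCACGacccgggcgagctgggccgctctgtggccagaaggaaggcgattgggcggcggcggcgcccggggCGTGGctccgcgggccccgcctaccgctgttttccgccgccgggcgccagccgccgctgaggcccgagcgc
Hspa5, Calr and Dnajc3 each hold 1 ERSE, and Dnajb9 holds 2 copies of CCACG outside an ERSE and 1 TGACG. Windows were found for 28 of the 30 genes, with no window for Hyou1 and Manf. The ERSE occurred in 7 of the 12 chaperone genes with a window (Calr, Canx, Creld2, Dnajc3, Hsp90b1, Hspa5 and Pdia6) and in 0 of the 16 other genes, against 0.119% of all 32851 windows. CCACG alone was found in 22 of 28 genes, against 32.8% of all windows. The 7 measured chaperones with an ERSE had averaged shTLS differences from -0.51 (Canx) to 0.74 (Dnajc3) with a median of 0.58, and the 4 measured ones without it (Pdia4, Dnajb9, Ero1l and Sdf2l1) ranged from 0.19 to 1.25 with a median of 0.36. These ranges overlapped.

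The 9 remaining measured chaperone and folding genes passed neither the fit without a block nor that with the number as a block, and 1 of them, Canx, passed with the mouse as a block. Pdia4, Creld2 and Manf were higher with shTLS in 6 of 6 pairs, with averaged differences of 0.48 ± 0.21, 0.58 ± 0.23 and 0.33 ± 0.25 (SE). Pdia4 is a protein disulphide isomerase, Creld2 an ER protein with isomerase activity and Manf a secreted ER-resident factor. The lowest single-pair value of Creld2 was 0.0038, in the third -/- mouse. Pdia6, another disulphide isomerase, and Hsp90b1, the HSP90 of the ER (GRP94), were higher in 5 of 6 pairs, with averages of 0.32 and 0.27. Hyou1, an exchange factor of BiP, and Sdf2l1, a partner of BiP-J-protein complexes, were higher in 4 of 6 pairs, with averages of 0.46 and 0.19.

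Canx, the membrane-bound lectin chaperone calnexin, ran the other way. It read 13.97, 13.87 and 12.92 in -/- shTLS cells, against 14.37, 14.34 and 13.18 in -/- control cells. It read 13.14, 12.13 and 13.02 in +/+ shTLS cells, against 14.22, 12.73 and 13.29 in +/+ control cells. Each pair was lower with shTLS while the groups overlapped. The averaged difference was -0.51 ± 0.35 (SE), with limma's adjusted p = 0.354, and 0.0349 with the mouse as a block. Its 2 other tested probes had differences of the opposite sign, 0.61 and 0.39, so the direction of Canx rests on the probe.

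Ero1l, the oxidase that recharges disulphide isomerases (RefSeq symbol Ero1a), had the widest spread of the 29 over the 6 control cultures. It read 12.07, 13.11 and 12.29 in -/- shTLS cells, against 11.49, 11.88 and 12.36 in -/- control cells. It read 12.64, 15.27 and 12.63 in +/+ shTLS cells, against 11.96, 16.01 and 12.82 in +/+ control cells. Both cultures of the second +/+ mouse lay above the other 10, of which the highest read 13.11, and the averaged difference with shTLS was 0.25 ± 0.69 (SE). The other tested probe of Ero1l, which was dimmer, had a larger averaged difference of 0.80. It gave 1.28 in -/- cells and 0.32 in +/+ cells, against 0.58 and -0.08 for the probe used.

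Of the 3 genes of ER-associated degradation, Herpud1 had the largest difference. Herpud1 (HERP) is a membrane protein of the degradation complex and is known as a target of both arms of the response. It read 14.76, 15.01 and 14.98 in -/- shTLS cells, against 13.77, 14.49 and 14.58 in -/- control cells. It read 14.93, 15.46 and 15.36 in +/+ shTLS cells, against 14.69, 14.70 and 14.55 in +/+ control cells. It was the one gene of the 29 whose shTLS cultures all lay above the control cultures in both genotypes. The share of all genes that do so in both genotypes was not counted, so this does not set Herpud1 apart. The averaged difference was 0.62 ± 0.19 (SE), a 1.54-fold ratio, with limma's adjusted p = 0.0685, and 0.0160 with the number as a block.

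Non-overlap in the upward direction was seen for 2 of 29 genes in -/- cells (Herpud1 and Ppp1r15a), or 6.90%, against 10.5% of all genes. In +/+ cells it was seen for 3 of 29 (Hspa5, Calr and Herpud1), or 10.3%, against 10.9% of all genes. These shares were near the background. Sel1l, the scaffold of the HRD1 ubiquitin ligase, and Edem1, a mannosidase-like protein that directs glycoproteins to degradation, averaged differences of -0.02 ± 0.21 and 0.05 ± 0.16 (SE). The probes of each gene differed in sign, and neither passed the fit without a block or with either block.

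Of the 4 stress transcription factors, Atf3 and Ddit3 were higher with shTLS by over 1 log2 unit on average, Atf4 had a mean difference near 0 and Xbp1 one below 0. ATF3 is a bZIP factor induced by ATF4 and by many other stress signals. Atf3 read 12.40, 12.89 and 13.25 in -/- shTLS cells, against 10.31, 11.11 and 12.61 in -/- control cells. It read 12.48, 14.27 and 13.11 in +/+ shTLS cells, against 9.97, 13.22 and 12.25 in +/+ control cells. Every pair was higher with shTLS, by 0.64 to 2.51, while the groups overlapped and the 6 control cultures spread over 3.26 log2 units. The averaged difference of 1.49 ± 0.58 (SE), a 2.80-fold ratio, was the largest of the 29, with limma's adjusted p = 0.127, and 0.0242 with the number as a block.

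Ddit3 encodes CHOP, the factor linked to cell death under prolonged ER stress. It read 10.21, 10.53 and 11.50 in -/- shTLS cells, against 8.56, 9.37 and 10.48 in -/- control cells. It read 10.30, 11.82 and 11.64 in +/+ shTLS cells, against 8.68, 12.30 and 9.76 in +/+ control cells. The second +/+ mouse was the exception among the pairs: its control culture had the highest Ddit3 of all 12 and its pair was lower with shTLS, with a difference of -0.48. The averaged difference was 1.14 ± 0.60 (SE), with limma's adjusted p = 0.236, and 0.0877 with the number as a block. Without both arrays of that mouse the fit with the number as a block called Ddit3 on average (limma, adjusted p = 0.00189), in -/- cells (0.0151) and in +/+ cells (0.0142).

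Atf4, the translationally controlled factor of the integrated stress response, had an averaged difference of 0.15 ± 0.26 (SE) and was higher in 4 of 6 pairs. The array reads mRNA and not the ATF4 protein. Xbp1, the IRE1 substrate, was lower in 5 of 6 pairs, with an average of -0.53 ± 0.33 (SE) and limma's adjusted p = 0.309. Spliced and unspliced Xbp1 mRNA cannot be told apart with this probe.

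Among the 9 ATF4 targets, Ppp1r15a was called higher and Phgdh lower in the fit with the number as a block, and 7 passed neither that fit nor the one without a block; Sesn2 was called with the mouse as a block. Ppp1r15a encodes GADD34, the subunit that directs dephosphorylation of eIF2alpha. It read 10.51, 10.87 and 11.83 in -/- shTLS cells, against 8.87, 9.69 and 10.23 in -/- control cells. It read 10.41, 12.77 and 11.82 in +/+ shTLS cells, against 8.26, 12.32 and 10.22 in +/+ control cells. The -/- groups did not overlap, and in +/+ cells the second control culture lay above 2 of the shTLS cultures. The averaged difference was 1.44 ± 0.65 (SE), a 2.70-fold ratio, with limma's adjusted p = 0.176, 0.0396 with the number as a block and 0.00554 with the mouse as a block. With the mouse as a block it was also called by limma within -/- cells (adjusted p = 0.0404) and within +/+ cells (0.0332).

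Phgdh, the first enzyme of serine synthesis, read 15.80, 15.72 and 15.41 in -/- shTLS cells, against 16.15, 16.08 and 16.07 in -/- control cells. It read 15.45, 14.70 and 15.41 in +/+ shTLS cells, against 15.79, 15.53 and 16.08 in +/+ control cells. The groups did not overlap in either genotype, and all 3 of its tested probes were lower with shTLS on average. Downward non-overlap was seen for 1 of 29 genes in each genotype, against 8.85% of all genes in -/- cells and 9.25% in +/+ cells. The averaged difference of Phgdh was -0.53 ± 0.19 (SE), with limma's adjusted p = 0.100, and 0.0403 with the number as a block.

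The other ATF4 targets were smaller in their differences or less regular. Trib3, a pseudokinase induced through ATF4 and CHOP, and Gdf15, a secreted stress cytokine, were higher in 6 of 6 pairs, with averages of 0.46 ± 0.30 and 0.34 ± 0.24 (SE). Sesn2, a sestrin that restrains growth signalling, was higher in 6 of 6 pairs within a narrow span of 0.27 to 0.45, averaging 0.38 ± 0.21 (SE), and was called with the mouse as a block (limma, adjusted p = 0.0438) but not with the number as a block (0.0846). Asns, asparagine synthetase, was higher in 5 of 6 pairs with an average of 0.47 ± 0.22 (SE). Psat1, the aminotransferase of serine synthesis, averaged 0.13 ± 0.25 and was higher in 2 of 6 pairs.

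Chac1, an enzyme that degrades glutathione, read 13.26, 12.79 and 11.59 in -/- shTLS cells, against 12.40, 13.09 and 13.03 in -/- control cells. It was lower in 5 of 6 pairs, with an average of -0.54 ± 0.32 (SE). Slc7a11, the cystine transporter, averaged -0.61 ± 0.54 (SE) and was lower in 4 of 6 pairs, the first mouse of each genotype being the exception. Neither passed the fit without a block or with either block.

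The windows of the 3 remaining genes called higher are shown because they hold no ERSE but letters of the elements known to bind ATF4 and related bZIP factors (RefSeq, GRCm38.p6, with capitals for the same elements).
Herpud1 (chr8:94386179-94386478, + strand): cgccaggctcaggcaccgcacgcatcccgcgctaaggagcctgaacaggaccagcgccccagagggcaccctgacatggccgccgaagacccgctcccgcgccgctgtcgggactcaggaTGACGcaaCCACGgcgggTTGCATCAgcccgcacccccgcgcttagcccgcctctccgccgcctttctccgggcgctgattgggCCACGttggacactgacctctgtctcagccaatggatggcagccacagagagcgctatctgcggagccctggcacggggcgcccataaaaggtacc
Atf3 (chr1:191183284-191183583, - strand): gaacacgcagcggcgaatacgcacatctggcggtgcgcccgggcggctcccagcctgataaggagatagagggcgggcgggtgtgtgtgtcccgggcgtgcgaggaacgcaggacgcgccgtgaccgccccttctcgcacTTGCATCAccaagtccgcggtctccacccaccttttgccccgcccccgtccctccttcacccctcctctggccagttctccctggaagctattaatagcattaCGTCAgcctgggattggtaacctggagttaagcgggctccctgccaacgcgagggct
Ppp1r15a (chr7:45526219-45526518, - strand): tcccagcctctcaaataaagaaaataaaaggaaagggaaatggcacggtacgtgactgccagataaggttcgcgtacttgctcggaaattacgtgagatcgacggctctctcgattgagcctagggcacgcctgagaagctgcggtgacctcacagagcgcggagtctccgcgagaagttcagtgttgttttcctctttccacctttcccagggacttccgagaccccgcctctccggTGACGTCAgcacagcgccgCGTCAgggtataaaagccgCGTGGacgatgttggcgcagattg
Herpud1 and Atf3 each hold 1 TGATGNAA on the reverse strand and 1 TGACG, and Ppp1r15a holds 3 copies of TGACG, of which 2 form 1 palindrome. TGATGNAA occurred in 6 of 28 genes (Asns, Atf3, Chac1, Herpud1, Slc7a11 and Trib3) and in 0 of the 12 chaperones with a window, against 3.97% of all windows. TGACG occurred in 12 of 28, against 20.8% of all windows. Of the 6 genes with TGATGNAA, Atf3 and Herpud1 were called higher, and Chac1 and Slc7a11 had averaged differences below 0. Other spacings of the ER stress element were not searched, and in the Herpud1 window the second CCACG follows ATTGG after 1 base. A match is a description of the letters in this window only.

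**Figure D2:**
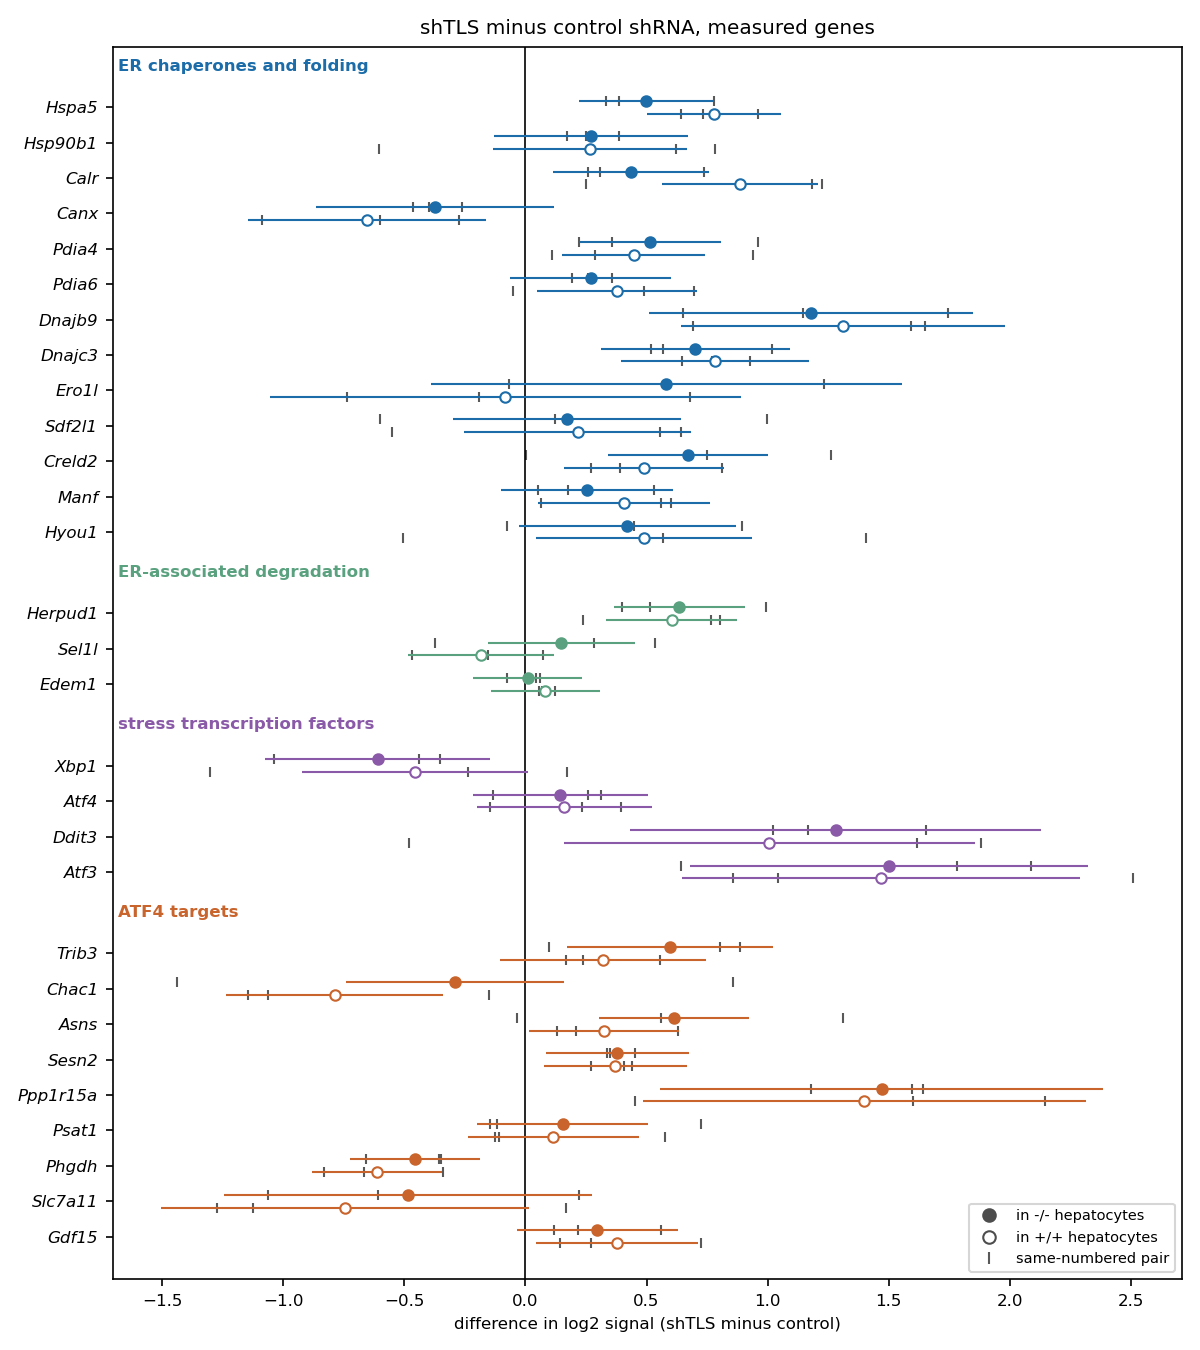
Difference in log2 signal between shTLS and control cultures (horizontal axis) for the 29 measured genes by class; filled circles are -/- cells and open circles +/+ cells, bars are standard errors and ticks are the 3 pairs. Most chaperones lie to the right of 0 (2 of 13 in -/- cells and 3 of 13 in +/+ cells under spike-in scaling, not drawn), Atf3, Ppp1r15a, Dnajb9 and Ddit3 reach above 1, and Canx, Xbp1, Chac1, Phgdh and Slc7a11 lie to the left in both genotypes.

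Set side by side, the chaperones and the ATF4 targets had similar median differences with shTLS. The 13 chaperones had a median of 0.44 log2 units in -/- cells and 0.45 in +/+ cells, and the 9 ATF4 targets 0.30 in -/- cells and 0.32 in +/+ cells, while all genes had a median of -0.02 in -/- cells and -0.01 in +/+ cells. By pair, the chaperone median was 0.78, 0.36 and 0.19 in -/- mice 1, 2 and 3 and 0.11, 0.60 and 0.69 in +/+ mice. The ATF4 target median was 0.72, 0.12 and -0.03 in -/- mice and 0.55, 0.21 and 0.13 in +/+ mice. The first mouse of each genotype thus had the highest ATF4 target median, whereas the chaperone median was highest in the first -/- mouse and lowest in the first +/+ mouse. With control culture 1 of the +/+ group left out, the ATF4 target median in +/+ cells was 0.02. Under spike-in scaling the chaperone medians were -0.30 in -/- cells and -0.36 in +/+ cells and those of the ATF4 targets -0.45 and -0.53, all above the shift of all genes under that scaling.

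**Figure D3:**
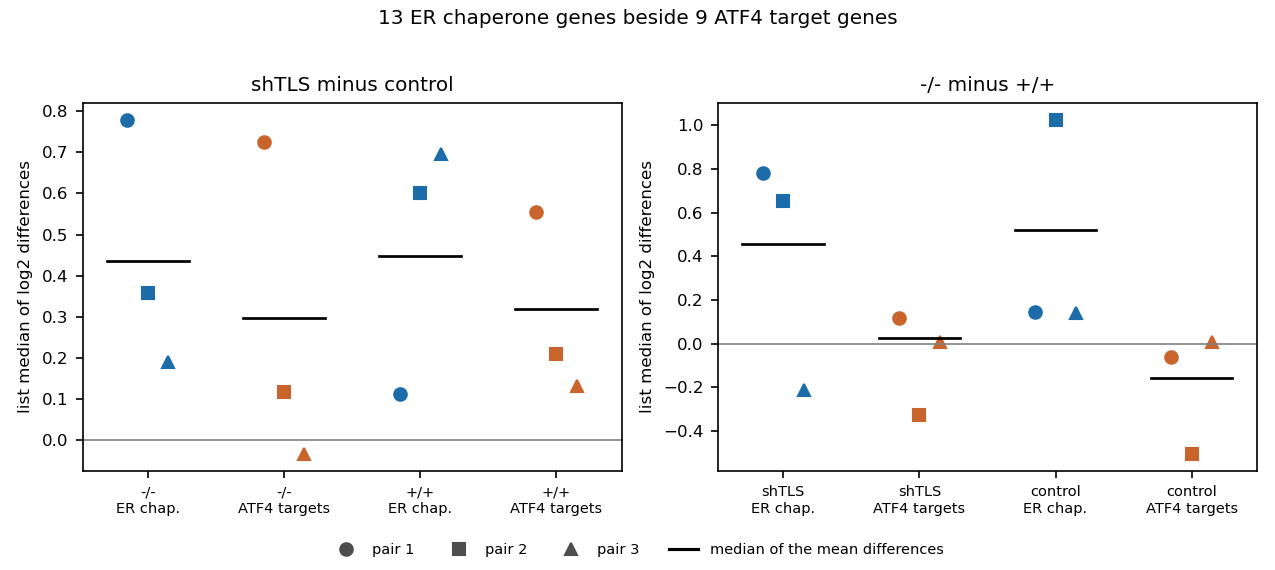
Median log2 difference (vertical axis) over the 13 chaperone genes and the 9 ATF4 targets for each same-numbered pair, with shTLS minus control on the left and -/- minus +/+ on the right; black bars are medians of the mean differences. The chaperone medians are above 0 in 6 of 6 shTLS pairs and the ATF4 target medians in 5 of 6, while under spike-in scaling, not drawn, the medians of the mean shTLS differences are below 0 in both genotypes.

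The wider pathway was read from 71 other listed genes, of which 67 were measured. Among 14 sensors and translation initiation genes, 2 were called higher and 1 lower in the averaged comparison by limma without a block, where 5.15% of all genes were called higher and 3.10% lower. Eif2ak2 (PKR), the eIF2alpha kinase activated by double-stranded RNA, averaged 11.34 ± 0.14 log2 units in -/- shTLS cells and 9.83 ± 0.51 in -/- control cells (SD, n = 3 each). In +/+ cells it averaged 10.69 ± 0.49 with shTLS and 9.28 ± 0.58 with control shRNA (SD, n = 3 each). Eif2ak2 rose in 6 of 6 pairs, by 1.46 ± 0.27 on average (SE, limma, adjusted p = 0.0103). It is also known as an interferon-induced gene.

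Ppp1r15b (CReP), the constitutive partner of GADD34 in dephosphorylating eIF2alpha, rose in 6 of 6 pairs by 1.23 ± 0.27 (SE, limma, adjusted p = 0.0213). It averaged 9.68 ± 0.50 in -/- shTLS cells and 8.57 ± 0.53 in -/- control cells, and 10.32 ± 0.08 in +/+ shTLS cells and 8.97 ± 0.57 in +/+ control cells (SD, n = 3 each). Mbtps2, the site-2 protease that releases ATF6, fell in 6 of 6 pairs, with a difference of -0.80 ± 0.16 (SE, limma, adjusted p = 0.0135). Its signal was low, beside a median of 5.30 over all probes of an array. Mbtps2 averaged 5.35 with shTLS and 6.20 with control shRNA in -/- cells, and 5.92 and 6.68 in +/+ cells. Of the other genes in this list, 3 were called higher in the fit with the number as a block: Ern1 (IRE1) by 0.76 ± 0.40, Atf6 by 0.98 ± 0.40 and Eif2ak3 (PERK) by 0.65 ± 0.21 (SE of the fit without a block), with limma's adjusted p = 0.0156, 0.0247 and 0.0272, against 0.239, 0.142 and 0.0762 without it. The eIF2alpha kinases Eif2ak1 (HRI) and Eif2ak4 (GCN2) were not called there (limma, adjusted p = 0.482 and 0.122), and Eif2ak3 lost its call in that fit without the second +/+ mouse (0.0690). Under spike-in scaling Ern1 and Eif2ak3 had -0.12 and -0.24, Atf6 0.16, Eif2ak2 0.56 and Ppp1r15b 0.34, none of them called, and Mbtps2 was called at -1.51 (limma, adjusted p = 0.00234).

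Among 30 other ATF4 and CHOP targets, limma without a block called 1, Slc7a1, a cationic amino acid transporter, at 1.29 ± 0.32 (SE, adjusted p = 0.0357). Its signal was low, with means of 5.43 with shTLS and 3.82 with control shRNA in -/- cells, and 5.12 and 4.15 in +/+ cells. The median over all probes of an array was 5.30. It was not called under spike-in scaling (0.68, limma, adjusted p = 0.101) or without the second +/+ mouse (0.0785). This list had 17 of 30 genes above 0 and a median of 0.06. Of 11 other chaperones 0 were called without a block, and 0 of 12 other degradation genes, and their medians were 0.04 and 0.05, against 0.46 for the 13 chaperones among the 29 genes. With the number as a block, 3 of the 30 ATF4 and CHOP targets were called higher and 1 lower, 1 of the 11 chaperones each way, and 2 of the 12 degradation genes higher, where 15.3% of all genes were called higher and 13.7% lower.

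The comparison of genotypes set -/- cells against +/+ cells with the same vector. With control shRNA 0 of 29 genes were called, against 0.0894% of all genes, and with shTLS 0 of 29 against 0.0841%, and 0 of 29 had an unadjusted p under 0.05 in either, against 3.29% of all genes with control shRNA and 2.12% with shTLS. Most of the 13 chaperones lay on the same side in both. With control shRNA 10 of 13 chaperones were higher in -/- cells, with a median of 0.52, against 0.03 for all genes. With shTLS again 10 of 13 were higher, with a median of 0.46, against 0.02. Of the 11 other chaperones, 7 were higher in -/- cells with control shRNA, with a median of 0.01. With shTLS 9 of these 11 were higher, with a median of 0.31. These medians hold no test.

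With control shRNA the groups did not overlap for 5 genes, all chaperones higher in -/- cells: Calr, Pdia4, Pdia6, Manf and Hyou1. That is 17.2% of the 29 against 3.35% of all genes, and 0 of 29 did not overlap in the other direction, against 3.75%. Hyou1 read 12.22, 13.06 and 11.95 in -/- control cells, against 11.81, 11.36 and 11.65 in +/+ control cells. Manf read 13.75, 14.35 and 13.83 in -/- control cells, against 13.47, 12.59 and 13.65 in +/+ control cells. For both genes the second -/- culture was the highest and the second +/+ culture the lowest of the 6. Hyou1 differed by 0.80 ± 0.45 and Manf by 0.74 ± 0.36 (SE), with limma's adjusted p = 1.00 for each.

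With shTLS 0 of 29 genes were free of overlap upward, against 2.70% of all genes, and 0 downward, against 2.56%. The chaperone median there was 0.78 and 0.65 for mice numbered 1 and 2 but -0.21 for those numbered 3. With control shRNA it was 0.15, 1.02 and 0.14 for mice numbered 1, 2 and 3, so it was largest for number 2. Without both arrays of the second +/+ mouse, the chaperone median was 0.48 with shTLS and 0.41 with control shRNA.

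Of the 3 chaperones with a lower mean in -/- cells, Dnajb9 and Ero1l were lower for all 3 numbers with either vector. Dnajc3 was lower for all 3 numbers with shTLS, with a mean difference of -0.14, against -0.06 with control shRNA. Dnajb9 differed by -1.01 ± 0.67 with shTLS and -0.88 ± 0.67 with control shRNA (SE). For Ero1l the difference was -1.02 ± 0.97 with shTLS and -1.69 ± 0.97 with control shRNA (SE), and without the second +/+ mouse it was -0.15 and -0.48. Atf4 was also lower for all 3 numbers, with differences of -0.53 ± 0.36 with shTLS and -0.51 ± 0.36 with control shRNA (SE). The second +/+ mouse read highest, at 13.32 with shTLS and 13.47 with control shRNA, against 12.05 and 12.19 in the second -/- mouse. The third mice lay close, at 12.83 and 12.60 in +/+ cells and 12.78 and 12.52 in -/- cells. With control shRNA 5 of 29 genes were lower for all 3 numbers, Asns and Slc7a11 included. Over all genes it was 3230 of 19017, so this share was near the background. With shTLS 7 of 29 (24.1%) were, Herpud1, Edem1 and Ddit3 included, against 16.1% of all genes. Higher for all 3 numbers were 8 of 29 with control shRNA and 1 with shTLS, against 17.5% and 16.5% of all genes.

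The ATF4 targets had medians nearer 0. Their median was 0.03 with shTLS and -0.16 with control shRNA, and the control median was 0.16 with the first -/- control culture left out. Ppp1r15a, Atf3 and Ddit3 had mean differences of -0.67, -0.47 and -0.78 with control shRNA, and of 0.36, 0.23 and 0.25 without the second +/+ mouse. In the wider list of 30 ATF4 and CHOP targets, 4 were higher in -/- cells with control shRNA and the median was -0.23, while 13 were higher with shTLS and the median was -0.01.

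Macrophage markers were set beside these values. All 11 measured had a higher mean in -/- than in +/+ cells with either vector, with a median difference of 1.43 with shTLS and 2.54 with control shRNA, but 0 of 11 were called by limma with or without the number as a block. By number the medians were 1.91, 1.04 and 0.46 with shTLS and 1.70, 4.46 and 0.34 with control shRNA, and without the second +/+ mouse they were 0.82 with shTLS, where 10 of 11 were higher, and 1.35 with control shRNA. In -/- cells their summed signal ran from 8520 to 30452 with shTLS and from 12548 to 88819 with control shRNA. In +/+ cells it ran from 5499 to 11626 with shTLS and from 6866 to 17347 with control shRNA. Clec4f, Vsig4 and C1qa, which define Kupffer cells and macrophages, were not above background on every array. Between shTLS and control cells the medians of the 11 were -1.30 in -/- cells, where 11 were lower, and -0.86 in +/+ cells, where 8 were lower. Averaged over genotypes limma called 0 of 11 without a block, where 3.10% of all genes were called lower. It called 3 of 11 lower with the number as a block, against 13.7% of all genes. With the mouse as a block it called 6 of 11 lower, against 16.0% of all genes. The part of macrophages in the differences of the stress genes was not tested. In such bulk cultures fewer cells of a type and less RNA per cell cannot be told apart.

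**Figure D4:**
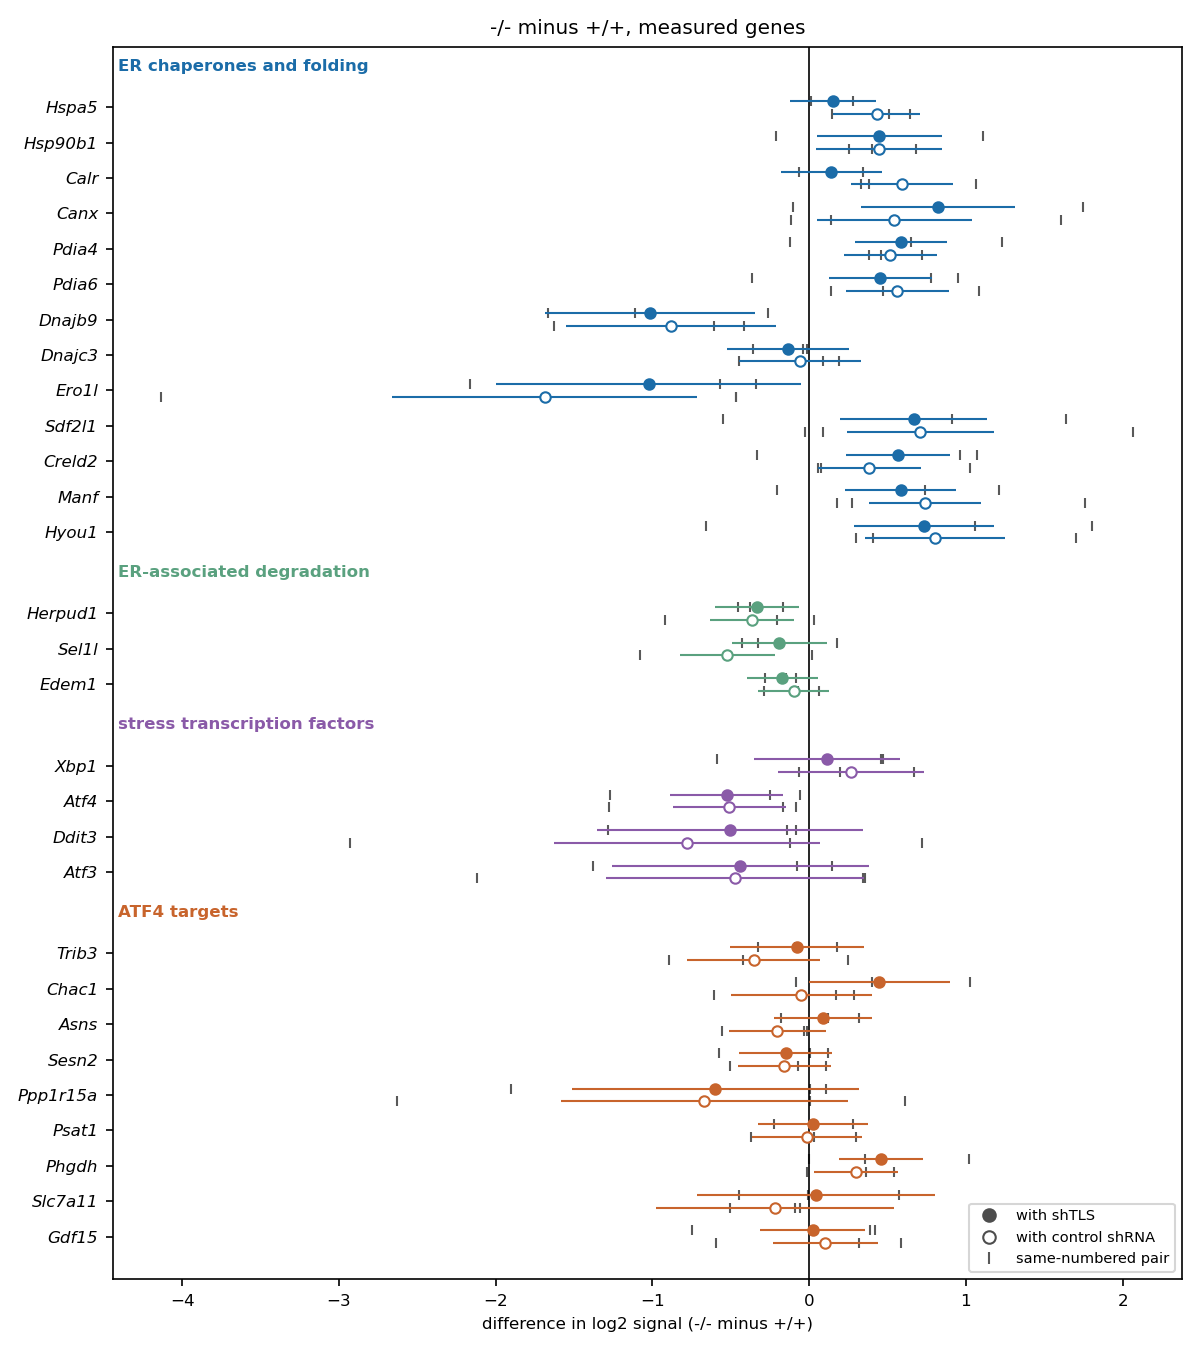
Difference in log2 signal between -/- and +/+ cells (horizontal axis) for the 29 measured genes by class; filled circles are shTLS cultures and open circles control cultures, bars are standard errors and ticks are same-numbered mice. Of 13 chaperones 10 lie to the right of 0 with either vector, while Dnajb9, Ero1l and, close to 0, Dnajc3 lie to the left.

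The effect of shTLS was not shown to differ between genotypes. The interaction called 0 of 29 genes, against 0.00% of all genes, and the lowest unadjusted p among the 29 was 0.346 by limma. The largest difference between the shTLS effects, of -/- minus +/+ cells, was 0.66 log2 units at Ero1l. For Atf3 the effect was 1.50 ± 0.82 in -/- cells and 1.47 ± 0.82 in +/+ cells, and for Ppp1r15a 1.47 ± 0.92 and 1.40 ± 0.92 (SE).

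The spread between control cultures was wide beside these effects. The range of a gene over the 6 control cultures had a median of 1.31 log2 units and went from 0.50 (Edem1) to 4.51 (Ero1l). The mean shTLS difference was smaller than this range for all 29 genes. The range holds differences between mice and between genotypes that the pairing takes out. It therefore does not measure the precision of the paired difference, and a share over all genes was not counted. Ppp1r15a spanned 4.06, Ddit3 3.74, Atf3 3.26 and Slc7a11 2.78. Phgdh came nearest, with a range of 0.62 beside a difference of -0.53.

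Both cultures of a mouse lay on the same side of the mean over 12 arrays for some mice and on opposite sides for others. Each gene's values were centred on its mean over 12 arrays, and the median of each class was taken per culture. For the 4 transcription factors it was 1.07 in the shTLS culture and 0.90 in the control culture of the second +/+ mouse, the highest of all 12 cultures, and -0.06 with shTLS and -1.07 with control shRNA in the first +/+ mouse. The chaperones of the second +/+ mouse did not follow, with -0.0042 in the shTLS culture and -0.65 in the control culture, the lowest of all 12. For 9 of 13 chaperones that control culture was the lowest of its group. The transcription factors had opposite signs in the second -/- mouse (0.16 with shTLS and -0.72 with control shRNA). This was also so in the third -/- mouse (0.57 and -0.0013) and the third +/+ mouse (0.52 and -0.26). The mean over 12 arrays holds both vectors, so the shTLS difference stays in these values. The transcription factor medians averaged 0.21 with shTLS and -0.65 with control shRNA in -/- cells, and 0.51 and -0.14 in +/+ cells. Opposite signs therefore cannot tell whether the cultures of a mouse differ beyond that.

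**Figure D5:**
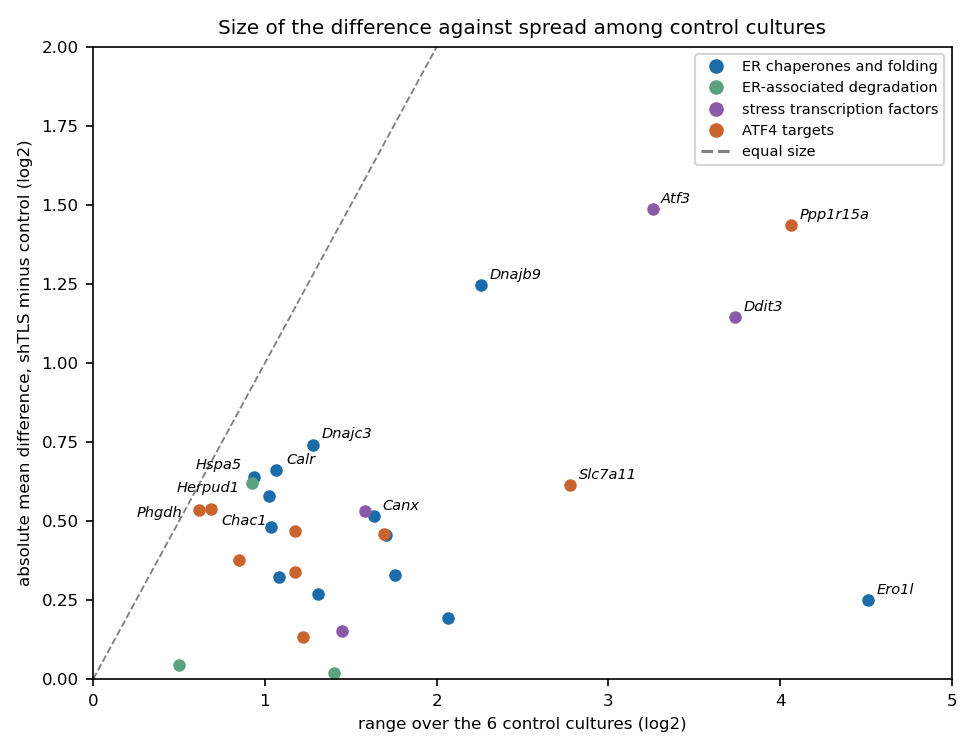
Absolute mean difference between shTLS and control cultures (vertical axis, log2) against the range over the 6 control cultures (horizontal axis, log2) for the 29 measured genes, coloured by class, with a dashed line of equal size. All 29 genes lie below the line, with Ero1l (range 4.51, difference 0.25) farthest to the right. The range holds differences between mice and genotypes, which the paired difference does not, and a share over all genes was not counted.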

How the data were processed

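Each of 12 arrays (Agilent, 1 colour) held RNA of 1 culture of primary mouse hepatocytes. Per the file headers and the submitters' processing notes, the authors read the intensity of each spot with Agilent Feature Extraction 10.1.1.1 and processed it with limma. The deposited log2 values were used as the main values; recomputed from the deposited intensity files with a floor of 1 and quantile normalization they correlated with r of at least 0.99945, so floor and normalization are inferred from the values. Quantile normalization removes any shift common to all genes. Background flags came from the intensity files.

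A probe was kept if the scanner marked it well above background throughout 1 or more of the groups (3 arrays each), which left 24962 of 41174 probes. Probes were named through RefSeq accessions (24375 of 41174 matched), and each gene was read from its brightest tested probe. Limma 3.58.1 (R 4.3.3) fitted the 4 group means on 12 arrays (8 residual degrees of freedom), with Benjamini-Hochberg adjustment over 19017 genes and calls at an adjusted p under 0.05. The script was tested on simulated data. Of 12 arrays 0 were identical, and their number limits the precision.

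The labels give 1 mouse and 1 independent assay per replicate number, and the number coincides with the slide. Same-numbered arrays deviated together (r from 0.233 to 0.671, against at most 0.0959 for other numbers), so fits with the number or mouse as a block stand beside the first. Each group always took the same place on the slide, and the 2 cannot be told apart.

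The 30 genes and the other lists were chosen with earlier results of these data known. All 30 were to be described, with values per array for genes called or, otherwise, those with the largest difference and the same sign in all pairs, and of the 71 other pathway genes those called on average; Ern1, Atf6 and Eif2ak3, and further genes given per array, were added after their values were seen. Promoter windows and symbols came from RefSeq (GRCm38.p6) and were searched with Python 3.11.15. Alternatives covered recomputed values, 75th percentile and spike-in scaling, normexp background correction, the filter, the samples fitted, the block, the probe rule and leaving out arrays. The level of the gene targeted by the shRNA is not reported here.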

Additional observations from a re-analysis of the deposited data

How the results depend on the processing

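With the deposited values and no block, limma called 0 of 29 genes in every comparison, and the alternatives that moved this count are as follows. The replicate block by number called 4 in +/+ cells and 8 on average, and that by mouse 4 in +/+ cells, 1 in -/- cells and 11 on average. Spike-in scaling called 3 in +/+ cells and 9 on average, and normexp 1 on average (Herpud1). Combinations added after seeing the data called, in the order -/-, +/+ and average, 1, 5 and 11 (number block with 75th percentile scaling), 4, 7 and 10 (number block with spike-in scaling) and 3, 3 and 9 (number block without +/+ mouse 2), against 8.24%, 16.5% and 32.7%, 46.5%, 51.0% and 68.6%, and 11.1%, 11.0% and 32.1% of all genes. With each array left out the averaged count ran from 0 to 2: Hspa5 without -/- control culture 3, Calr without +/+ shTLS culture 1, and Ddit3 and Ppp1r15a without +/+ control culture 2. The counts by genotype, the comparisons of genotypes and the interaction stayed at 0 in all these single omissions, and the block changed no call in the last 2.

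The chaperone medians, under spike-in scaling with or without the block, were -0.30 in -/- cells, -0.36 in +/+ cells and -0.34 on average, and the ATF4 target medians -0.45, -0.53 and -0.49. With each array left out the chaperone median ran from 0.31 to 0.60 in -/- cells, 0.25 to 0.62 in +/+ cells and 0.36 to 0.59 on average, and the ATF4 target median from 0.21 to 0.43, 0.018 to 0.32 and 0.19 to 0.40. Between genotypes with control shRNA it ran from 0.32 to 0.66 for chaperones and from -0.35 to 0.16 for ATF4 targets.

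Over all genes, 188 were called in -/- cells, 228 in +/+ cells and 1570 on average. The number block gave 1182, 2376 and 5510, the mouse block 1599, 2975 and 6234, normexp 110, 136 and 1264, and probes above background on all 12 arrays 91, 111 and 1029. Spike-in scaling gave 213, 4273 and 10387, 75th percentile scaling 351 in +/+ cells, and a fit of the compared groups alone 48 in +/+ cells. Single omissions gave 93 to 223, 98 to 309 and 644 to 1940. Without both arrays of +/+ mouse 2, 36 were called in +/+ cells and 978 on average; with the number block as well, 2106, 2101 and 6099. Between genotypes 16 were called with shTLS and 17 with control shRNA, and the number block gave 32 and 30. The cause of these changes was not tested. Of the 29 genes, Canx, Edem1 and Sel1l have tested probes that differ in sign.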

Other observations

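Markers of other liver cell types were present in all groups. The summed signal of 8 hepatocyte markers came to 157416 to 195797 (-/- with shTLS), 197204 to 370859 (-/- with control shRNA), 209461 to 240787 (+/+ with shTLS) and 197143 to 485261 (+/+ with control shRNA). The 6 cholangiocyte markers came to sums of 18516 to 62274 (-/- with shTLS), 49272 to 215014 (-/- with control shRNA), 18955 to 44211 (+/+ with shTLS) and 40557 to 142459 (+/+ with control shRNA). Krt7 and Cftr, which mark biliary cells, were not above background on every array. The 8 endothelial markers came to sums of 5053 to 17464 (-/- with shTLS), 4072 to 10869 (-/- with control shRNA), 2646 to 7286 (+/+ with shTLS) and 3378 to 6485 (+/+ with control shRNA). The 6 stellate markers came to sums of 9122 to 45551 (-/- with shTLS), 12539 to 41818 (-/- with control shRNA), 9712 to 16635 (+/+ with shTLS) and 12955 to 18654 (+/+ with control shRNA). The first mouse of each genotype had the highest cholangiocyte sum among the control cultures. In +/+ control cells this followed Spp1, the brightest of the 6 markers, at 17.05, 15.80 and 15.22 log2 units in mice 1, 2 and 3. None of the other markers was highest in the first +/+ control culture, and Krt19 read 12.41, 14.89 and 10.66. The part of these cells in the stress gene values was not tested.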
